A study of Mus musculus with 9 samples.

Results

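The 34 genes that encode the Wnt ligands, the frizzled receptors and the co-receptors Lrp5, Lrp6, Ror1, Ror2 and Ryk were compared between cultured skin-derived precursor cells (SKPs) and Sox2-positive cells sorted from neonatal mouse skin. They are 19 ligands, 10 frizzleds and 5 co-receptors, taken by symbol from the 19938 genes measured by probe sets annotated to 1 gene. 33 of them have 1 such probe set, and for Wnt4, which has 2, the one with the higher mean over the 9 arrays was used.

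The 4 SKP arrays (replicates 3, 4, 5 and 6) carry RNA from independent primary-passage cultures started from back skin of mice at postnatal day 4, harvested as spherical colonies. The 5 sorted arrays (replicates 2, 16, 17, 18 and 20) carry RNA from independent isolates of Sox2:EGFP mouse back skin of the same age, in which cells positive for EGFP and negative for surface CD34 were sorted straight into RNAlater. EGFP reports Sox2 in these mice, and in neonatal skin Sox2 is known from the dermal papilla, the mesenchymal core of the hair follicle. Which mouse line the SKP cultures were started from, and whether any preparation pooled animals, is not given in the sources used here. Culture and sorting differ together between the groups, so that their effects cannot be told apart, and in bulk RNA fewer cells of a type cannot be told from less RNA per cell.

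Wnts are secreted lipid-modified proteins. A ligand bound by a frizzled and by Lrp5 or Lrp6 stabilises beta-catenin, which then acts with TCF and LEF factors on target genes, whereas frizzleds acting with Ror1, Ror2 or Ryk feed the planar cell polarity and calcium branches. In the hair follicle, Wnts start the placode, and beta-catenin activity in the dermal papilla is needed for the papilla to keep inducing hair growth.

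Levels are log2 RMA values, on which 1 unit is a 2-fold difference, and are compared only between arrays for the same gene. In what follows the values of a gene are given in the order SKP replicates 3, 4, 5 and 6, then sorted replicates 2, 16, 17, 18 and 20. The median level of all genes lay between 7.15 and 7.30 on each array. As a guide to background, the mean level of 1015 olfactory receptor genes, which skin cells should hardly transcribe, had a 95th percentile of 6.16 in SKPs and 6.10 in the sorted cells. Sox2 itself was at 5.78 to 6.41 in SKPs, about this level, at 9.25 and 8.97 on sorted replicates 2 and 20 and at 8.24 to 8.61 on replicates 16, 17 and 18. Cd34, sorted against, was at 10.19 and 10.27 on sorted replicates 2 and 20 and at 7.31 to 7.82 on replicates 16, 17 and 18. These 2 arrays also differed in their marker lists, of which the fibroblast list includes Cd34 and the papilla list Sox2. The mean over 18 keratinocyte markers was 9.99 and 11.34 on them against 9.28 to 9.42 on the other 3, that over 13 dermal fibroblast markers 10.78 and 11.11 against 9.66 to 9.72, and that over 14 dermal papilla markers 10.48 and 9.79 against 11.58 to 11.72. Calls of the 34 genes and counts of the pathway lists are therefore also given without replicates 2 and 20 where they changed.

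Of the 15 frizzleds and co-receptors 8 were lower in SKPs, and none was higher. Of the 34 genes, 12 were lower and 0 higher (limma, p under 0.05 after Benjamini-Hochberg adjustment across the whole table), 35.3% of the members being lower against 16.9% of all genes, while 20.2% of all genes were higher. Without adjustment, 15 members were lower and 1, Wnt2, was higher at p under 0.05. By role, 6 of 10 frizzleds, 2 of 5 co-receptors and 4 of 19 ligands were lower. Of the called members, 7 were lower by at least 2-fold (Fzd10, Fzd6, Fzd4, Fzd3, Wnt11, Lrp6 and Wnt5a), where 6.25% of all genes were called lower and 5.46% higher with that limit. In 10 members (29.4%) every SKP array lay below every sorted array, as it did in 15.5% of all genes, and in 0 members above, as in 18.5%. The median log2 fold change was -0.72 for the frizzleds, -0.39 for the co-receptors and -0.17 for the ligands, beside 0.07 for all genes tested.

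**Figure D1:**
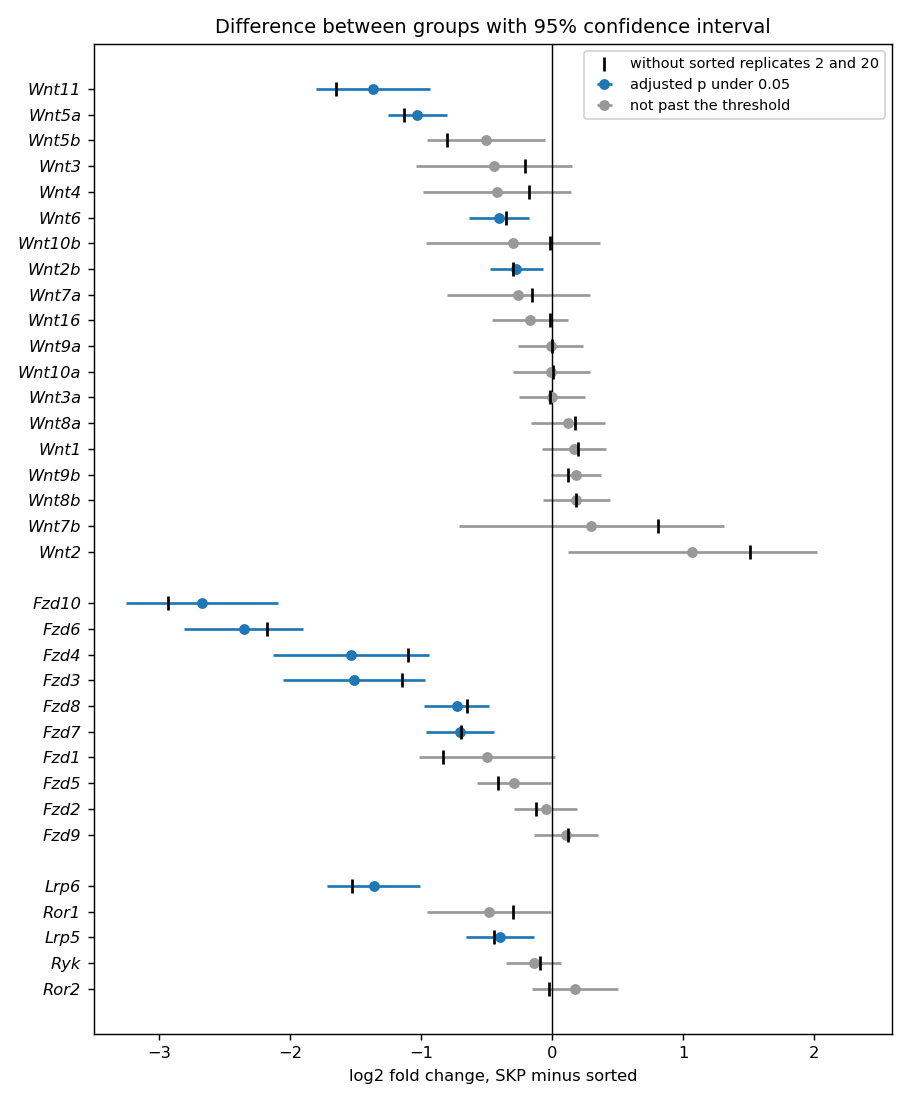
Log2 fold change of each of the 34 genes, SKP minus sorted, with its 95% confidence interval (x axis), grouped as ligands, frizzleds and co-receptors (y axis, from top to bottom). Blue points passed an adjusted p of 0.05, grey points did not, and black ticks give the value without sorted replicates 2 and 20. All 12 blue points lie left of 0, from -0.27 for Wnt2b to -2.67 for Fzd10.

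Without sorted replicates 2 and 20, all 12 members were called again in the same direction, and 15 members were lower and 2 higher, beside 21.1% and 25.4% of all genes. The members gained were Fzd1, Fzd5 and Wnt5b, lower, and Wnt2 and Wnt7b, higher.

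The frizzleds are seven-pass receptors that bind Wnts through a cysteine-rich domain, and Fzd10 differed most. Its levels were 7.05, 7.01, 6.52 and 6.48 in SKPs and 8.51, 9.85, 9.57, 9.70 and 9.58 in the sorted cells. Even the lowest sorted array, replicate 2, was well above the highest SKP array. Fzd10 was 6.38-fold lower in SKPs, with a log2 fold change of -2.67 (SE 0.26, limma adjusted p = 2.99e-05). The SKP means of Fzd10, Fzd6 and Fzd4 (6.77, 6.83 and 6.65) lay above the background guide of 6.16. They lay under the 99th percentile of the olfactory receptor genes in SKPs (6.91), so the folds of these 3 genes rest on low SKP levels.

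Fzd3 and Fzd6, the pair of frizzleds known for planar cell polarity and, in the case of Fzd6, for the orientation of hair follicles, were both lower in SKPs. Fzd6 was at 7.04, 6.86, 6.82 and 6.61 against 8.96, 9.07, 8.91, 9.04 and 9.95. All sorted arrays were above all SKP arrays, replicate 20 standing highest, and the difference was 5.12-fold (log2 fold change -2.36, SE 0.20, limma adjusted p = 1.42e-05). Fzd3 was at 7.73, 8.28, 7.84 and 7.74 against 9.95, 9.12, 9.07, 8.94 and 9.98, a 2.86-fold difference (log2 fold change -1.51, SE 0.24, limma adjusted p = 7.87e-04). Its groups did not overlap either, and sorted replicates 2 and 20 were the highest arrays. Without them Fzd3 was 2.21-fold lower.

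Fzd4, the receptor of the non-Wnt ligand norrin and a receptor of vascular growth, fell likewise. Levels were 6.56, 6.85, 6.55 and 6.64 in SKPs and 8.83, 7.84, 7.80, 7.62 and 8.85 in the sorted cells, with sorted replicates 2 and 20 again about 1 unit above the rest. The difference was 2.90-fold (log2 fold change -1.54, SE 0.27, limma adjusted p = 0.00127), or 2.15-fold without those arrays. Norrin's gene, Ndp, was 6.06-fold lower and Tspan12, which acts with Fzd4 in norrin signalling, 1.88-fold lower (limma adjusted p = 1.75e-06 and 0.0352). Leaving out sorted replicates 2 and 20 gave 6.09-fold for Ndp and 1.38-fold for Tspan12, which was chosen after its values were seen. The SKP mean of Ndp (6.89) lay just under the 99th percentile of the olfactory receptor genes in SKPs (6.91). Fzd9, grouped with Fzd4 and Fzd10 by sequence, had a difference of 0.11 on the log2 scale (95% confidence interval -0.13 to 0.35), with levels of 6.64 to 7.12 and 6.68 to 6.82. Its means lay under the 99th percentile of the olfactory receptor genes in both groups (6.91 in SKPs and 6.85 in the sorted cells).

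Smaller differences were found in Fzd7 and Fzd8. Fzd7, a receptor of the beta-catenin branch in many stem and progenitor cells, was at 8.76, 9.18, 8.61 and 8.84 against 9.48, 9.66, 9.54, 9.43 and 9.65, and was 1.63-fold lower (limma adjusted p = 9.01e-04). Fzd8 was at 8.07, 8.28, 7.96 and 7.84 against 8.88, 8.83, 8.66, 8.56 and 8.90, and was 1.66-fold lower (limma adjusted p = 5.60e-04). In neither gene did the groups overlap.

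Fzd1, Fzd2 and Fzd5 were not called on all arrays. Fzd1 was at 10.19, 10.41, 10.01 and 10.02 in SKPs and at 10.41, 11.04, 10.97, 10.96 and 9.88 in the sorted cells. Sorted replicates 2 and 20 lay among or below the SKP arrays and the other 3 above them, so that the log2 fold change of -0.49 (limma adjusted p = 0.128) became -0.83 without those arrays (adjusted p = 1.96e-04). Fzd5, a close relative of Fzd8, had a log2 fold change of -0.29 (95% confidence interval -0.58 to -0.01, adjusted p = 0.0994), and -0.42 without them (adjusted p = 0.0213). Fzd2, a close relative of Fzd1 and Fzd7, had one of -0.05 (95% confidence interval -0.29 to 0.19), with levels of 9.10 to 9.45 in SKPs and 9.004 to 9.46 in the sorted cells.

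The co-receptor Lrp6, which carries the Wnt signal to the beta-catenin branch together with a frizzled, was lower in SKPs. It was at 9.70, 9.89, 9.59 and 9.55 against 11.12, 11.27, 11.23, 11.13 and 10.48, so that the groups did not overlap although sorted replicate 20 lay between the SKPs and the other sorted arrays. The difference was 2.57-fold (log2 fold change -1.36, SE 0.16, limma adjusted p = 1.02e-04). Its paralogue Lrp5 was at 8.97, 9.20, 8.59 and 8.90 against 9.19, 9.44, 9.33, 9.30 and 9.28. Here SKP replicate 4 reached the lowest sorted array, and Lrp5 was 1.31-fold lower (limma adjusted p = 0.0228), a call lost without SKP replicate 6 (adjusted p = 0.0563) or sorted replicate 16 (adjusted p = 0.0550).

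Ror1, Ror2 and Ryk did not pass the test on all arrays. Ror2, a receptor tyrosine kinase that binds Wnt5a, was at 9.63 to 9.83 in SKPs and 9.12 to 9.88 in the sorted cells, with a log2 fold change of 0.18 (95% confidence interval -0.15 to 0.51). Its relative Ror1 had one of -0.48 (95% confidence interval -0.95 to -0.01, limma adjusted p = 0.104), with 9.46 on sorted replicate 20 and 8.57 to 8.75 on the other sorted arrays. SKP replicate 4 was the highest SKP array at 8.85, and without it Ror1 was called lower (log2 fold change -0.65, adjusted p = 0.0322), as it was with array weights (-0.35, adjusted p = 0.0387). Ryk, a kinase-like receptor without kinase activity, was at 10.39 to 10.48 and 10.47 to 10.87, with a log2 fold change of -0.14 (95% confidence interval -0.35 to 0.07). For Ror1, Ror2 and Ryk the interval on all arrays thus lies within a 2-fold change in either direction. That of Ror1 lies wholly on the lower side.

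**Figure D2:**
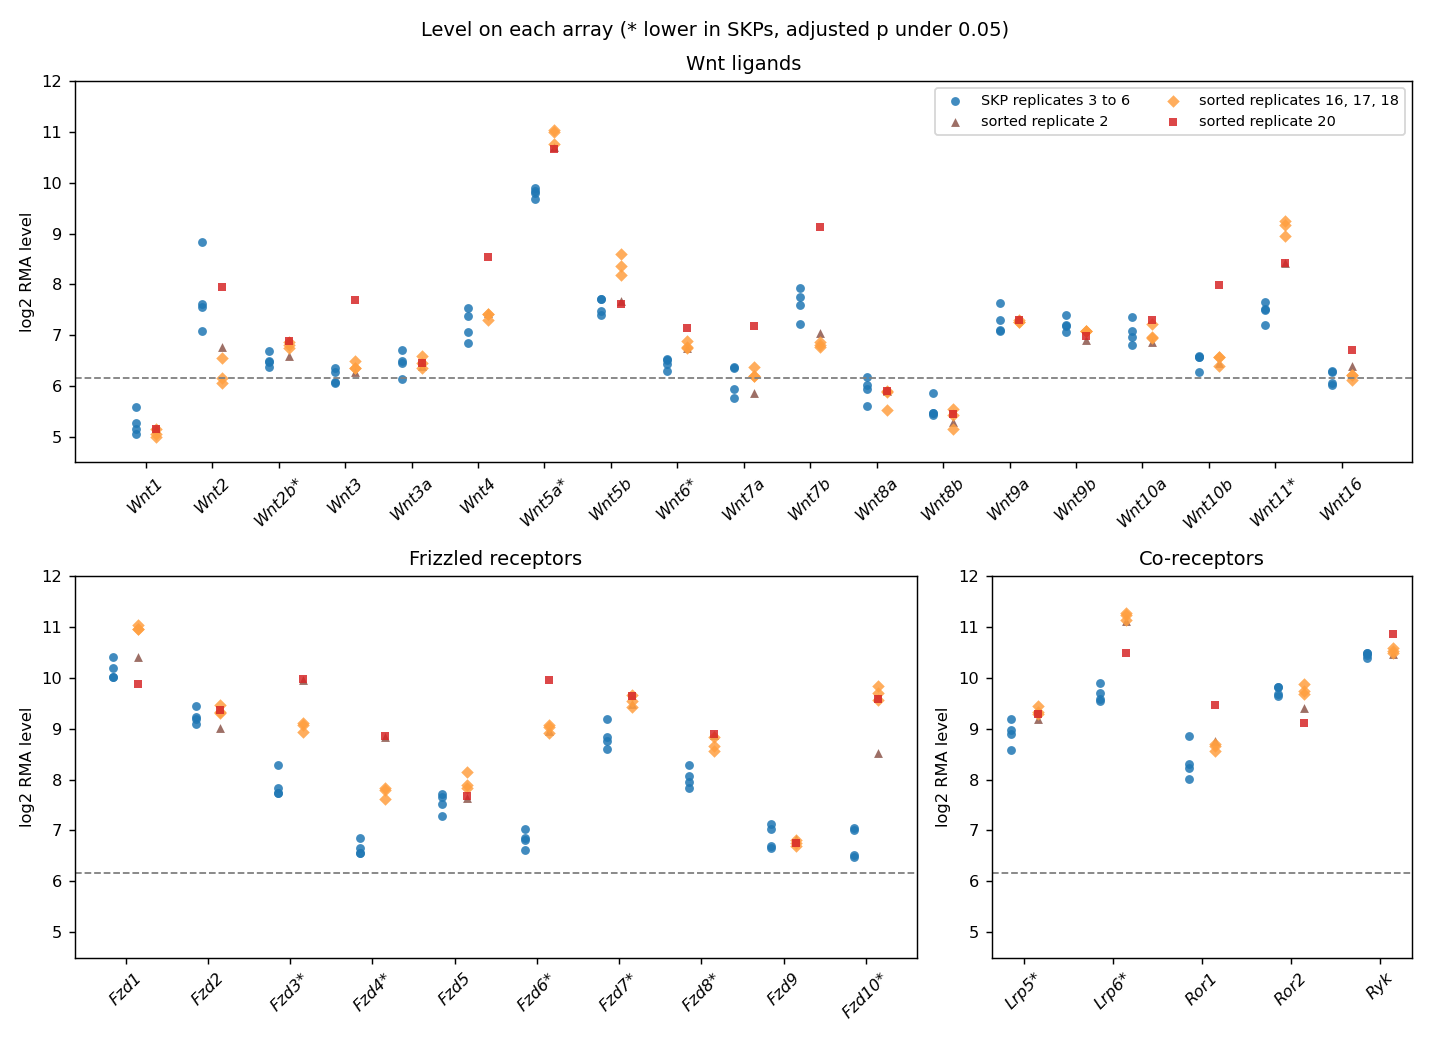
Log2 RMA level (y axis) of each gene (x axis) on every array, with SKPs to the left and sorted arrays to the right of each gene. The dashed line is the higher of the background guides, 6.16, and an asterisk marks genes lower in SKPs. The SKP points of Fzd3, Fzd4, Fzd6, Fzd7, Fzd8, Fzd10, Lrp6, Wnt5a, Wnt6 and Wnt11 lie wholly below the sorted points. Sorted replicate 20 stands alone for Wnt3, Wnt4, Wnt7b and Wnt10b.

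Among the ligands, Wnt5a and Wnt11, both mesenchymal Wnts known for the branches that do not need beta-catenin, were the ones lower by 2-fold or more. Wnt11 was at 7.50, 7.21, 7.51 and 7.65 in SKPs and at 8.42, 9.25, 9.16, 8.95 and 8.42 in the sorted cells. No SKP array reached a sorted one, and replicates 2 and 20, which had the identical value, were the lowest of the sorted group. The difference was 2.58-fold (log2 fold change -1.37, SE 0.19, limma adjusted p = 3.48e-04), and 3.14-fold without those arrays. Wnt5a was at 9.84, 9.89, 9.80 and 9.69 against 10.71, 11.003, 10.77, 11.04 and 10.66, a 2.04-fold difference (log2 fold change -1.03, SE 0.10, limma adjusted p = 3.07e-05). The gap between the groups was wider than the range of either. Wnt5b, the paralogue of Wnt5a, was at 7.71, 7.40, 7.48 and 7.72 against 7.68, 8.36, 8.18, 8.595 and 7.61. It was not called on all arrays (log2 fold change -0.51, adjusted p = 0.0754), whereas without sorted replicates 2 and 20, which lay at the level of the SKPs, it was 1.74-fold lower (adjusted p = 6.09e-04).

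The other pair of ligands called lower, Wnt6 and Wnt2b, gave small differences at low levels. Wnt6, a Wnt of epithelia, was at 6.54, 6.44, 6.30 and 6.52 against 6.74, 6.76, 6.74, 6.88 and 7.14, with no overlap and a log2 fold change of -0.41 (limma adjusted p = 0.0102). Wnt2b was at 6.50, 6.48, 6.38 and 6.69 against 6.60, 6.81, 6.86, 6.76 and 6.90, with a log2 fold change of -0.27 (limma adjusted p = 0.0388). The 2 groups overlapped, the call was lost in 8 of 17 refits, and both means lay under the 99th percentile of the olfactory receptor genes (6.91 in SKPs and 6.85 in the sorted cells).

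Wnt2, a ligand of the beta-catenin branch known from mesenchyme, had the highest fold change among the members. It was at 7.62, 8.83, 7.09 and 7.55 in SKPs and at 6.77, 6.07, 6.17, 6.55 and 7.95 in the sorted cells. Sorted replicate 20 lay above 3 of the 4 SKP arrays, and the log2 fold change of 1.07 (95% confidence interval 0.12 to 2.03) missed the threshold (limma adjusted p = 0.0762). Without SKP replicate 4, the highest SKP array, it was 0.72 (adjusted p = 0.199). Without sorted replicate 20 it was 1.39 (adjusted p = 0.00886), and without both replicates 2 and 20 it was 1.51, or 2.85-fold (adjusted p = 0.00746).

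Wnt7b, a Wnt of the epidermis and follicle epithelium, was spread most among the sorted arrays. Its levels were 7.59, 7.22, 7.93 and 7.76 in SKPs and 7.05, 6.77, 6.80, 6.87 and 9.14 in the sorted cells. All SKP arrays thus lay between sorted replicate 20 and the other 4, and the log2 fold change was 0.30 (adjusted p = 0.643). Without replicate 20 alone it was 0.75 (adjusted p = 0.00257), and without both replicates 2 and 20 it was 0.81 (adjusted p = 0.00204), as SKPs were then 1.75-fold higher.

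Of the remaining ligands, 3 were not above the background guide in either group, namely Wnt1, Wnt8a and Wnt8b, with all their values between 5.00 and 6.19. Wnt7a was above it in the sorted cells alone, at 7.18 on replicate 20 and 5.87 to 6.39 on the others, and at 5.77 to 6.37 in SKPs (log2 fold change -0.26, adjusted p = 0.449). Wnt3a, Wnt9a and Wnt10a had log2 fold changes of -0.00, -0.01 and -0.01, with 95% confidence intervals that kept between -0.30 and 0.29. Those of Wnt9b and Wnt16 were 0.18 (95% confidence interval -0.01 to 0.37) and -0.17 (-0.46 to 0.12). The means of Wnt3a, Wnt7a and Wnt16 lay under the 99th percentile of the olfactory receptor genes in both groups. This percentile was 6.91 in SKPs and 6.85 in the sorted cells. Small differences at such levels do not show equal expression. For Wnt9b the call depends on the scaling, as it was higher after quantile normalization (0.25, adjusted p = 0.0243) and after median centring (0.25, adjusted p = 0.0344).

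Wnt3, Wnt4 and Wnt10b, Wnts of the hair follicle and epidermis, had log2 fold changes of -0.44, -0.42 and -0.30 (adjusted p = 0.231, 0.232 and 0.471). In each gene the sorted mean was drawn up by replicate 20. Wnt3 was at 7.70 there and at 6.29 to 6.49 on the other sorted arrays, against 6.06 to 6.36 in SKPs. Wnt4 was at 8.53 and 7.30 to 7.44, against 6.85 to 7.54 in SKPs, and its second probe set gave the same order, with 8.21, 6.84 to 7.26 and 6.41 to 6.93. Wnt10b was at 7.99 and 6.40 to 6.57, against 6.28 to 6.59. The means of Wnt3 and Wnt10b lay under the 99th percentile of the olfactory receptor genes in both groups.

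**Figure D3:**
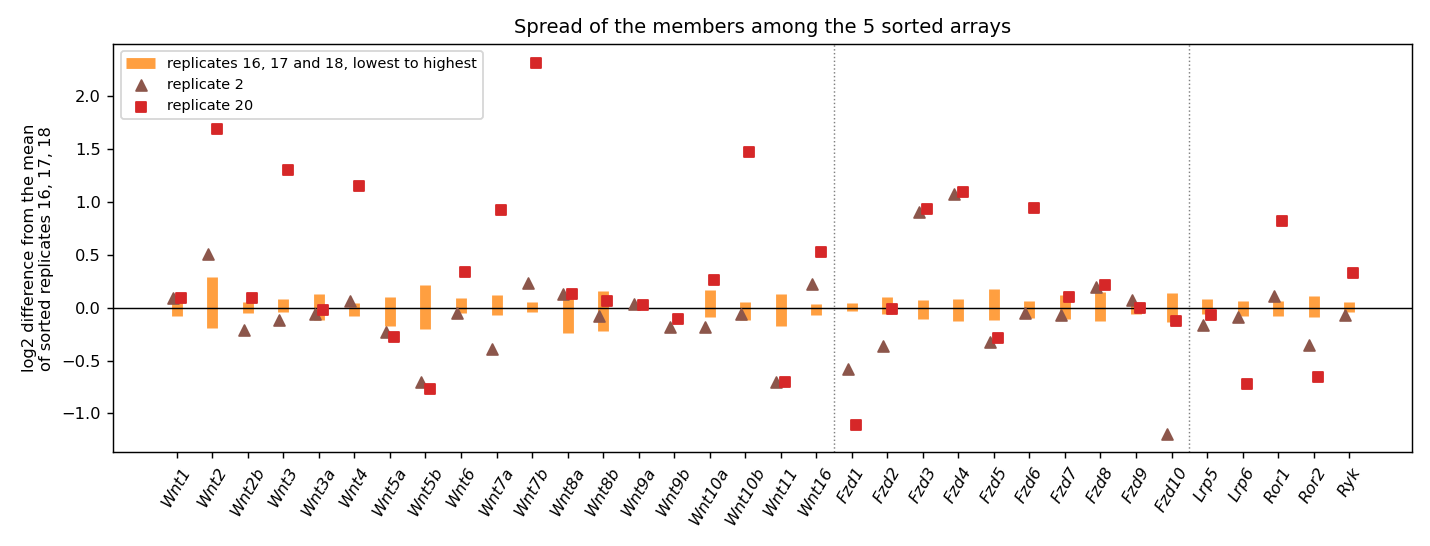
Log2 difference of sorted replicates 2 and 20 from the mean of sorted replicates 16, 17 and 18 (y axis) for each gene (x axis), with the bar giving the lowest to the highest of the latter 3. Dotted lines divide ligands, frizzleds and co-receptors. Replicate 20 lies at least 1 unit above that mean for 5 ligands and Fzd4, and at least 1 unit below it for Fzd1.

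The sorted arrays split in ways that varied with the gene. Relative to the mean of replicates 16, 17 and 18, replicate 20 was at least 1 unit higher in 6 members, of which 5 were ligands (Wnt7b by 2.32, Wnt2 by 1.69, Wnt10b by 1.47, Wnt3 by 1.30 and Wnt4 by 1.15) and the sixth was Fzd4 (by 1.09). Replicate 2 was so in 1 member, Fzd4 (by 1.08). In 9 members both replicates lay below the range of the other 3, among them Wnt11, Wnt5a, Wnt5b and Fzd1, and in 9 both lay above it, among them Fzd3, Fzd4 and Wnt2. The shares of all genes that split in these ways were not computed, so these counts cannot be read as particular to the members. Marker lists of other cell types also differed between these arrays, and most of them between the groups. Their counts are to be read beside the 16.9% of all genes that were lower and the 20.2% that were higher. Without sorted replicates 2 and 20 these shares were 21.1% and 25.4%. The mean of the keratinocyte list was 11.34 on replicate 20, 9.99 on replicate 2, 9.28 to 9.42 on the other sorted arrays and 6.61 to 6.87 in SKPs. 16 of its 18 genes were lower in SKPs and 0 higher, Krt1, Dsc3 and Dsg3 were not above the background guide there, and the basal keratin Krt5 was 25.6-fold lower, or 16.4-fold without sorted replicates 2 and 20. Of the 14 papilla markers, which include the sorting gene Sox2, 13 were lower in SKPs and 1 higher. Their list mean was 7.49 to 7.69 in SKPs and 9.79 to 11.72 in the sorted cells. Of 15 myeloid and immune markers 13 were higher in SKPs and 0 lower, with a list mean of 6.97 to 8.52 against 5.96 to 6.25, and 8 of them, Ptprc and Lyz2 included, were not above background in the sorted cells. Of 18 hair matrix and shaft markers 10 were lower, and all 18 without sorted replicates 2 and 20, with list means of 7.33 and 7.26 on those arrays, 9.39 to 9.64 on the other sorted arrays and 6.07 to 6.46 in SKPs, where 9 were not above background. Lower were also 9 of 10 Schwann cell (7.11 to 7.57 in SKPs, 8.91 to 9.76 in sorted cells), 9 of 11 melanocyte (6.81 to 7.15 and 8.34 to 8.81) and 8 of 12 pericyte and smooth muscle markers (7.49 to 7.68 and 9.18 to 9.80), with 1 higher in each list. Of 13 dermal fibroblast markers, Cd34 included, 7 were higher and 1 lower (11.003 to 11.16 and 9.66 to 11.11). Of 12 endothelial markers 2 were lower, about the share of all genes, and 0 higher (6.47 to 6.76 and 6.44 to 7.52). Without sorted replicates 2 and 20, 9 fibroblast markers were higher and 2 lower, and 4 endothelial markers were higher and 2 lower. The myeloid and immune list then had 12 higher, and the pericyte and smooth muscle list 9 lower. The part of these cell types in the differences of the Wnt genes was not tested.

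Promoter sequences are shown so that genes sharing a lower call can be read side by side. The windows come from the RefSeq promoter table (GRCm38.p6), and member windows on 1 chromosome were left out. Of the 34 genes, 24 had a window that was kept, and the 4 lower members with the largest fall among these are shown. Fzd6, Fzd3, Lrp6, Wnt5a and Fzd8 also fell more than Fzd7 but had no kept window. Of the 12 lower members, 6 had one. Each line gives the 250 bases before the annotated start, 5′ to 3′ along the gene, with matches on either strand to the GC box GGGCGG or to a TCF/LEF word in capitals. The latter was taken as any of CTTTGAA, its variant with a final T (CTTTGAT), the word CTTTGTA and its variant with a final T (CTTTGTT). They lie at chr5:128600856-128601105 (Fzd10), chr7:89404116-89404365 (Fzd4), chr7:98834862-98835111 (the first of the Wnt11 starts listed) and chr1:59481897-59482146 (Fzd7), all on the plus strand.
Fzd10: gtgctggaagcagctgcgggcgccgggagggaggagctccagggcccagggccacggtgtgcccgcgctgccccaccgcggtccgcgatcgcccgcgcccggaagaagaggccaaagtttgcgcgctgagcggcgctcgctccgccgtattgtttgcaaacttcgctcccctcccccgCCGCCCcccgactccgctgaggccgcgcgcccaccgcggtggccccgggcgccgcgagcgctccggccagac
Fzd4: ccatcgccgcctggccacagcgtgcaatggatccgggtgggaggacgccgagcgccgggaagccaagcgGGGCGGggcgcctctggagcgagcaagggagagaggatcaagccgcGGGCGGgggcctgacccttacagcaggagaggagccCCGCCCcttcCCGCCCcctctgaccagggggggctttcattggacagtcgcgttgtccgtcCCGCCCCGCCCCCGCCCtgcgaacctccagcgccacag
Wnt11: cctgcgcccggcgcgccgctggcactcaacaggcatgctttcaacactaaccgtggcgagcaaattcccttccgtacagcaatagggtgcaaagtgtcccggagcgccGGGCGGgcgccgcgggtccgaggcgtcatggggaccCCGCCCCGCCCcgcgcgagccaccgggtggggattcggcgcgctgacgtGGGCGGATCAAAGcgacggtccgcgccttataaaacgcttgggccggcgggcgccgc
Fzd7: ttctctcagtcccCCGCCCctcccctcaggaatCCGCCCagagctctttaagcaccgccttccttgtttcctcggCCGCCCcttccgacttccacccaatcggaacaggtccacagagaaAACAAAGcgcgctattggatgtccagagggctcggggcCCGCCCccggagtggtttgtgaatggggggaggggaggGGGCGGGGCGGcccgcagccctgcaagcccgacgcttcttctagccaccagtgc

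In these windows Fzd10 has 1 GC box, Fzd4 has 7, Wnt11 has 4 and Fzd7 has 6, with neighbouring boxes sharing 1 base in Fzd4, Wnt11 and Fzd7. No TCF/LEF word overlaps a GC box. Wnt11 and Fzd7 have 1 TCF/LEF word each, starting 51 and 130 bases before the start, and Fzd10 and Fzd4 have none. Over the 27 windows kept for the 24 genes, 21 hold a GC box and 3 a TCF/LEF word. In the whole table, with no chromosome left out, 32.7% and 14.8% of the 32851 windows do. The Sox word CATTGTT was in 0 of the 27 and in 3.29% of all. The 4 windows shown are 65.2% to 76.4% G or C, against a median of 52.4% over all windows. The part of base composition in these shares was not tested. A match describes the letters in the window and is not evidence of binding.

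Other genes of the Wnt pathway are given in lists chosen by role, to be read beside the 16.9% of all genes that were lower and the 20.2% that were higher, or 21.1% and 25.4% without sorted replicates 2 and 20. Of 9 R-spondin genes, their Lgr receptors and the ubiquitin ligases that remove frizzleds from the cell surface, 8 were lower (9 without those arrays) and 0 higher, with a median log2 fold change of -1.58. Among the genes lower were Rspo2 and Rspo3, secreted amplifiers of the Wnt signal. Rspo2 was at 5.26 to 5.74 in SKPs, under the background guide, and at 8.68 to 11.65 in the sorted cells, and its difference is given no fold. Rspo3 was 17.0-fold lower, or 26.6-fold without sorted replicates 2 and 20. Its SKP mean (6.72) lay under the 99th percentile of the olfactory receptor genes in SKPs (6.91), so these folds rest on a low level. The ligase genes Znrf3 (2.59-fold) and Rnf43 (1.73-fold) were also lower, Rnf43 being at 6.05 to 6.45 in SKPs, about the background guide. Of 24 nuclear effectors and feedback targets 16 were lower (17 without those arrays) and 1 higher, with a median of -0.56. Lef1, a transcription factor that works with beta-catenin, was 8.51-fold lower (13.4-fold without sorted replicates 2 and 20), Tnfrsf19, a target gene, 7.59-fold, and Axin2, a widely used readout of the beta-catenin branch, 4.09-fold lower. Ccnd1, the cyclin D1 gene, was 2.82-fold higher. The SKP mean of Tnfrsf19 (6.80) was also under that 99th percentile.

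Antagonists went both ways. Of 24 secreted or membrane antagonists 7 were lower (10 without sorted replicates 2 and 20) and 2 higher, with a median of -0.35. Wif1, which binds Wnts directly, was 64.7-fold lower (102-fold without sorted replicates 2 and 20) and Sostdc1, which binds Lrp5 and Lrp6, 32.9-fold lower, while Tpbg (3.25-fold) and the Lrp ligand Dkk2 (2.08-fold) were higher. Sostdc1 was at 5.95 to 6.53 in SKPs, about the background guide, and its fold rests on that level. The SKP mean of Wif1 (6.83) lay under the 99th percentile of the olfactory receptor genes in SKPs (6.91). The folds of Wif1 thus rest on a low SKP level too.

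The machinery for making Wnts showed opposite calls within 1 list. Wls, the carrier that takes Wnts to the cell surface, was higher in SKPs at 11.89, 12.003, 11.84 and 11.87 against 10.97, 10.98, 10.77, 10.93 and 11.12 (1.93-fold, limma adjusted p = 1.70e-05). Porcn, the enzyme that attaches their lipid, was lower at 7.25, 6.85, 6.96 and 6.95 against 7.92, 7.94, 7.95, 7.87 and 7.61 (1.81-fold, limma adjusted p = 1.44e-04). Neither gene's groups overlapped. In the whole list of 16 secretion, carrier and accessory receptor genes 2 were higher (Wls and Gpc6) and 5 lower, led by the glypican Gpc3 (10.3-fold) and Ndp, with a median of -0.21. Without sorted replicates 2 and 20, 3 were higher and 6 lower.

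Of 24 cytoplasmic genes of the beta-catenin branch 12 were lower and 1 higher (14 and 2 without sorted replicates 2 and 20), with a median of -0.26, Dixdc1 (3.56-fold) and Frat1 (2.19-fold) falling most and the kinase gene Csnk1g2 being 1.71-fold higher. Ctnnb1, which encodes beta-catenin, differed by -0.09 on the log2 scale (adjusted p = 0.589). It was chosen after its values were seen, as were Axin2, Porcn, Znrf3 and Rnf43. Of 31 genes of the polarity and calcium branches 14 were lower (17 without those arrays) and 3 higher, with a median of -0.21. Daam2 (10.6-fold) and Celsr2 (3.93-fold) were the lowest, and Ankrd6 (1.68-fold) and Cdc42 (1.31-fold) the highest. The SKP means of Dixdc1 (6.46), Frat1 (6.76), Daam2 (6.75) and Celsr2 (6.51) lay under the 99th percentile of the olfactory receptor genes (6.91). Their folds rest on low SKP levels.

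**Figure D4:**
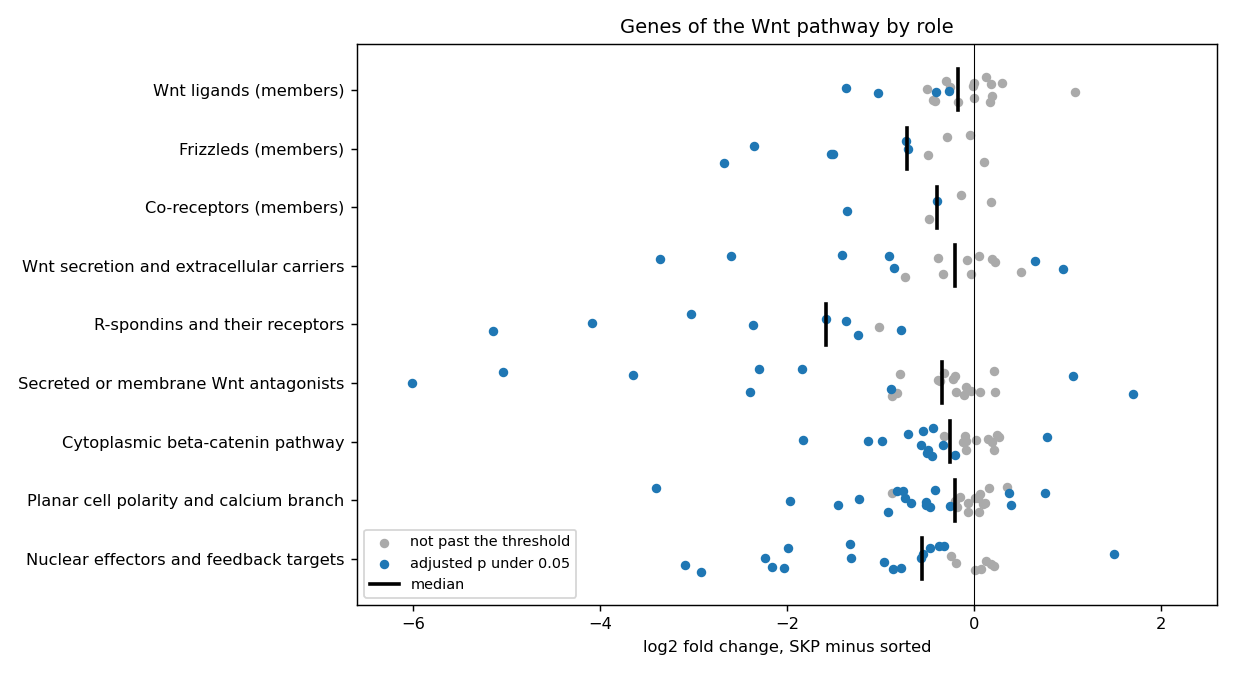
Log2 fold change, SKP minus sorted (x axis), of each measured gene of the members and of 6 further lists of Wnt pathway genes (y axis). Blue points passed an adjusted p of 0.05, grey points did not, and the black bar is the median. The R-spondin list has the lowest median (-1.58), and the frizzleds have a median of -0.72.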

How the data were processed

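Per the submitters' processing notes, the authors summarised Affymetrix Mouse Gene 1.0 ST arrays by RMA in Affymetrix Expression Console and used limma, and the deposited values are log2 levels, 1 per probe set and array (35556 probe sets, 9 arrays). Versions, settings and genome build are not given in the sources used here. Detection p-values were not used, and the number of arrays limits the precision.

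For each of 19938 genes the probe set annotated to 1 symbol was used, and where there were several, that of highest mean level. SKP minus sorted was fitted to all genes with limma 3.58.1 in R 4.3.3 (lmFit and eBayes, no trend, not robust), with two-sided moderated tests and Benjamini-Hochberg adjustment over all genes. The script was tested on simulated data. Groups follow the sample titles. Identical values on different arrays occurred in 10 of the 34 members, mostly low ones but also Wnt11, Fzd1 and Ror2, and can narrow their spread.

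The members and lists were chosen with earlier results of these data known. All members are described, and of each other pathway list up to 2 called genes with the largest increase and up to 2 with the largest decrease are named, unless said otherwise. Lists are given as counts and medians, with no test. The alternatives were quantile normalization, median centring, a filter on low genes, other handling of probe sets, array weights, trend and robust fitting, stricter thresholds and leaving out arrays.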

Additional observations from a re-analysis of the deposited data

Results flagged for a closer look

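In 11 of 68 sets of arrays (34 genes in 2 groups), 1 array lay so far from the rest that its gap passed Dixon's 95% limit, which chance does in about 1 of 20 sets. In 7 of the 11 this was sorted replicate 20. It was high for Wnt3 (7.70, others 6.29 to 6.49), Wnt4 (8.53, others 7.30 to 7.44), Wnt7b (9.14, others 6.77 to 7.05), Wnt10b (7.99, others 6.40 to 6.57), Fzd6 (9.95, others 8.91 to 9.07) and Ror1 (9.46, others 8.57 to 8.75), and low for Lrp6 (10.48, others 11.12 to 11.27). Sorted replicate 2 was low for Fzd10 (8.51, others 9.57 to 9.85) and sorted replicate 16 for Wnt8a (5.53, others 5.88 to 5.90). Among the SKPs, replicate 6 was high for Wnt8b (5.86, others 5.44 to 5.48) and replicate 5 low for Wnt10b (6.28, others 6.57 to 6.59). Wnt8a and Wnt8b were not above background, and identical values on other sorted arrays narrowed the range of Wnt8a. The 68 sets share the same 9 arrays, and the share of such sets over all genes was not computed. The count therefore cannot be read as particular to the members.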

How the results depend on the processing

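In 17 refits, 10 of the 12 lower members were called each time, and Wnt2b and Lrp5 were not. No call changed direction. Of the 22 uncalled members, 15 were not called in any refit. The number of members called lower was 10 to 16 over the refits, 9 at an adjusted p under 0.01 and 7 with a 2-fold limit. The number called higher was 1 after quantile normalization, 1 after median centring, 2 with array weights, 2 without both sorted replicates 2 and 20, and 0 to 2 on leaving out 1 array. Over all genes, 6145 were higher with array weights, and 1089 were higher and 1247 lower with the 2-fold limit. Median centring raised the share of calls that were higher from 54.4% to 64.4%. The filter on low genes left out 5 members, which then gave no value. With the 90th or 99th percentile as guide, 32 or 24 members stood above background in at least 1 group, against 31. No paired analysis was possible because the groups share no replicate number.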

Other observations

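Several Wnt genes are neighbours in the genome. In RefSeq's gene annotation, 4 pairs of members lie next to each other among protein-coding genes, and in no pair were both genes called. Wnt6 was lower in SKPs (log2 fold change -0.41), and its neighbour Wnt10a had a log2 fold change of -0.01 (limma adjusted p = 0.973). Wnt3 and Wnt9b had log2 fold changes of -0.44 and 0.18, Wnt3a and Wnt9a -0.00 and -0.01, and Wnt10b and Wnt1 -0.30 and 0.17, with none of these 6 genes called.

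Rspo4 was the R-spondin list's gene that was not called on all arrays (log2 fold change -1.02, adjusted p = 0.504). Without sorted replicates 2 and 20 it was called lower, with a log2 fold change of -2.84, or 7.14-fold. It was at 10.65, 10.32 and 10.82 on sorted replicates 16, 17 and 18, at 6.40 and 5.72 on replicates 2 and 20, and at 7.79, 6.99, 8.27 and 8.005 in SKPs. It was chosen after its values were seen.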
